A study of Mus musculus with 6 samples.

Results

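Notch signalling was described through 10 genes measured in mouse common bile duct epithelium: the receptors Notch1, Notch2, Notch3 and Notch4, the ligands Jag1, Jag2 and Dll4, and the target genes Hes1, Hey1 and Heyl. They were taken by name, as every non-control probe of the array that carries one of these gene names, which gave 15 of the 56605 probes and 10 of the 20725 genes that could be tested. The mice were C57BL/6 and are called iFGF10 in the labels, for an inducible Fgf10 construct. The DOX+ group consists of 3 samples from mice that drank 0.02% doxycycline for 5 days, and the DOX- group of 3 samples from mice given plain water over the same 5 days. Doxycycline is an antibiotic used to turn on transgenes through a tetracycline-responsive switch, and FGF10 is a secreted growth factor. The promoter and cell type that drive the construct are not given in the sources used here. Both groups are called iFGF10 in the source names, but the sample descriptions of the DOX- group carry the name WT followed by a pair of numbers, so whether those mice carried the construct, and whether a sample is 1 mouse or a pool, is not settled by the labels. No doxycycline-treated mice without the construct were analysed here, so the drug and the induced gene cannot be told apart. The comparison of DOX+ with DOX- asks how the transcripts of this pathway stood after 5 days of induction.

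Notch receptors are membrane proteins that are activated by ligands of the Delta and Jagged families on a neighbouring cell. Binding leads to cleavage by ADAM proteases and gamma-secretase, and the freed intracellular domain enters the nucleus, where it joins RBPJ and Mastermind proteins and switches on genes of the Hes and Hey families, which encode transcriptional repressors. In the liver the pathway is known for directing the formation of bile ducts, where JAG1 and NOTCH2 are mutated in human Alagille syndrome. In blood vessels Notch1, Notch4 and Dll4 are used by endothelial cells, and Notch3 and Heyl by smooth muscle cells and pericytes.

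Each RNA was hybridised to 1 Agilent array, and a level is the log2 of the processed intensity minus the log2 of the array's 75th percentile. Levels of different probes cannot be set against each other, so each gene is compared with itself across arrays. Between 55.9% and 61.9% of spots per array were well above background, none was saturated, and the number of arrays, 3 in each group, limits the precision. Because the labels do not tie each sample to an animal, the p-values speak of the scatter among these 6 samples, which may be technical. All arrays lay on 1 slide and came from 1 scan. On the slide, row 1 held every DOX+ array together with DOX- replicate 1, while row 2 held DOX- replicates 2 and 3. Of 12 epithelial marker genes tested, all were well above background on all 6 arrays, as were all 16 endothelial, all 14 smooth muscle and pericyte and all 8 fibroblast markers. Markers of other cell types were thus measured beside those of the labelled epithelium. In such bulk RNA, fewer cells of a type and less RNA per cell cannot be told apart.

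The probe that represents a gene was the one with the highest mean, and 5 further probes carry the names Notch1, Notch2, Notch4 and Heyl. The probes of Notch1 and Notch4 are shown because those of 1 gene disagreed with each other. They are 60 bases long, are given 5′ to 3′ as in the deposited files, and are positioned on the mm9 build. The first Notch1 probe below represents the gene and lies on the minus strand at chr2:26319440-26319499. The second lies on the same strand at chr2:26354049-26354108, where the file gives a separate Ensembl transcript. The first Notch4 probe below lies on the plus strand at chr17:34721567-34721775, a span of 209 bases that is longer than the probe. The second is given a different transcript accession and lies at chr17:35104770-35104829, which is 379 kb from the probe that represents Notch4 (chr17:34725384-34725442), and between probes named Hspa1b and Hspa1a, so its link to Notch4 rests on the name in the file.
Notch1, representing probe: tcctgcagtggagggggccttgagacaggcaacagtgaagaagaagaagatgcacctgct
Notch1, second probe: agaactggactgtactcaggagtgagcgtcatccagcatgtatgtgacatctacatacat
Notch4, probe across 209 bases: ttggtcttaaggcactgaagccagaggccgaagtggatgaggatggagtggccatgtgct
Notch4, distant probe: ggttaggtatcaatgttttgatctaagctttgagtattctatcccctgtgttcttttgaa

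None of the 10 genes passed the limma test across all 20725 genes (adjusted p between 0.180 and 0.991), where 8 genes, or 0.0386%, passed (4 higher and 4 lower in DOX+, 0.0193% each). At an unadjusted p under 0.05 there were 3 of the 10, namely Jag2, Notch3 and Notch4, all higher in DOX+, beside 13.4% of all genes (7.17% higher and 6.18% lower). In the same 3 genes every DOX+ array lay above every DOX- array, which was so for 10.4% of all genes, and the reverse for 10.6%. Of the 10 genes, 7 had a higher and 3 a lower mean in DOX+, and the median log2 difference was 0.34, beside -0.0084 over all genes tested. All 10 representing probes were well above background on all 6 arrays, so none of them entered the test through 1 group alone.

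**Figure D1:**
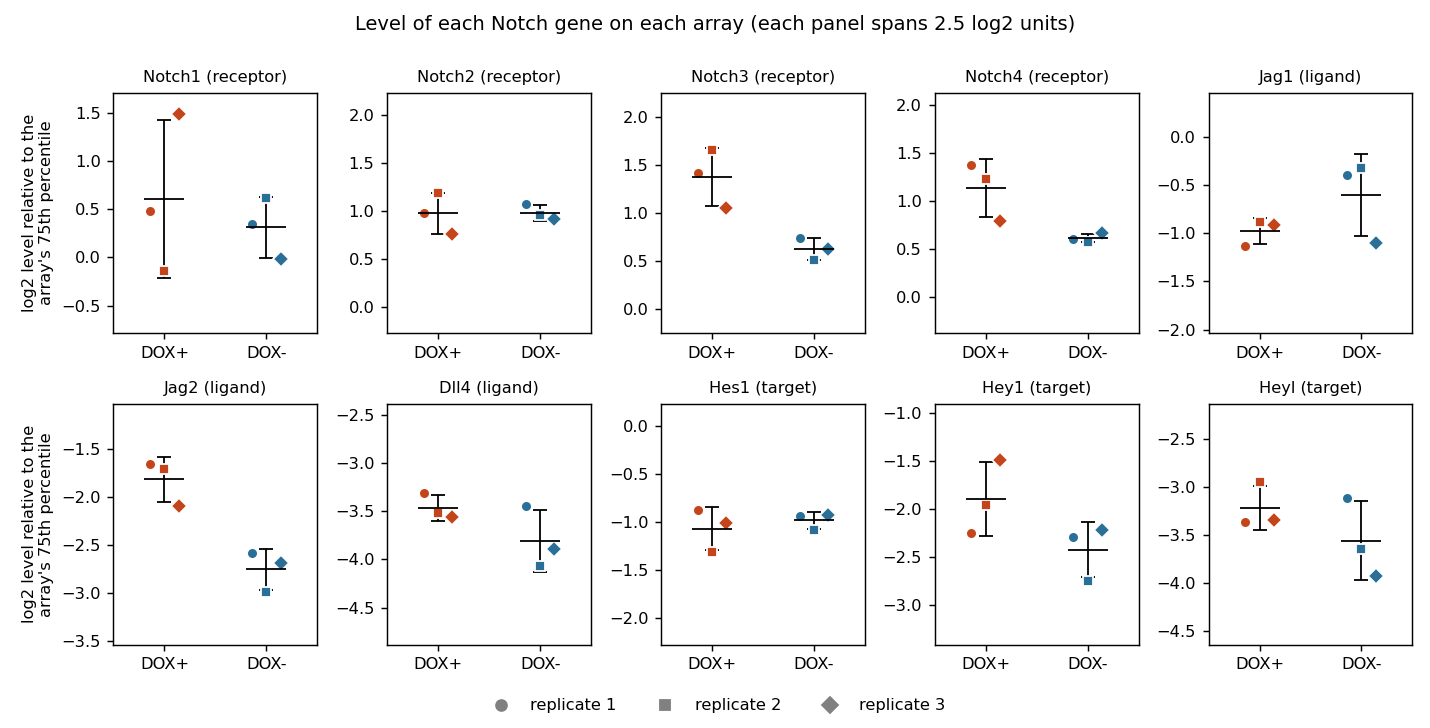
Each panel shows 1 gene, with the DOX+ arrays on the left and the DOX- arrays on the right; the vertical axis is the log2 level relative to the array's 75th percentile, points are arrays, and bars are the mean and SD (n = 3 each). Notch3, Notch4 and Jag2 have all DOX+ points above all DOX- points, and Notch1 has its widest spread within DOX+.

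For 7 of the 10 genes a promoter sequence was given, from 250 bases before to 50 bases after the RefSeq start site (GRCm38.p6). Those of Notch3, Notch4 and Jag2 are shown, since these genes had groups that did not overlap. The windows were searched on both strands for TGGGAA, the core of the RBPJ site, for CACGTG, an E-box that Hey proteins can bind, and for CACNAG, the N-box bound by Hes proteins. None of the 7 windows held TGGGAA or CACGTG, which 25.6% and 7.15% of 32851 promoters held. The N-box was in 4 of the 7 (Notch1, Notch2, Notch3 and Dll4) and in 42.5% of all promoters. The GC content of the windows was 70.0% for Notch3, 58.3% for Notch4 and 86.0% for Jag2, beside a median of 52.7% over all promoters. Capitals mark the N-boxes, of which Notch3 has 2, at positions -204 and -159 from the start site; they are a match of letters only. The windows lie at chr17:32166841-32167140 on the minus strand for Notch3, chr17:34564045-34564344 on the plus strand for Notch4 and chr12:112929446-112929745 on the minus strand for Jag2, and are given 5′ to 3′ on the strand of the gene.
Notch3: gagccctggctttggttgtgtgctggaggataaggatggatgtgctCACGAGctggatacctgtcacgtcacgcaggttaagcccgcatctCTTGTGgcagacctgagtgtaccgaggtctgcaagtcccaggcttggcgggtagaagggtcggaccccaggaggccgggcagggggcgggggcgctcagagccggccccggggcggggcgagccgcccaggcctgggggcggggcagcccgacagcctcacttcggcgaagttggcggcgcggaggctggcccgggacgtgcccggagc
Notch4: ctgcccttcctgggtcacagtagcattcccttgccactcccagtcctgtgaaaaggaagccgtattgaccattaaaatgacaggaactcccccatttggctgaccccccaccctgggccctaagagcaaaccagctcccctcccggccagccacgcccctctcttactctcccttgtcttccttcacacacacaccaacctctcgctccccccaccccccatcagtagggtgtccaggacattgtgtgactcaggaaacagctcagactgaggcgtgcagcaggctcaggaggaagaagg
Jag2: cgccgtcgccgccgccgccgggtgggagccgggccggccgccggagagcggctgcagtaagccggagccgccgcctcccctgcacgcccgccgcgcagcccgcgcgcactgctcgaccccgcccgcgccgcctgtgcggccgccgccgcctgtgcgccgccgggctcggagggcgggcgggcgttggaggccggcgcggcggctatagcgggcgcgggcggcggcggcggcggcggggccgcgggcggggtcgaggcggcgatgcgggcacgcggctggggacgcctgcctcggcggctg

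Among the receptors, Notch3, which signals mainly in the smooth muscle cells and pericytes of vessels, had log2 levels of 1.41, 1.65 and 1.05 in DOX+ and 0.73, 0.50 and 0.62 in DOX-. All 3 DOX+ arrays were above all 3 DOX- arrays, and the gap between the groups was 0.31. The probe lies on the minus strand at chr17:32257888-32257947 (mm9). The means were 1.37 ± 0.31 in DOX+ and 0.62 ± 0.12 in DOX- (SD, n = 3 each), a log2 difference of 0.75 (SE 0.19, 95% interval 0.30 to 1.20) or 1.68-fold, which did not pass (limma adjusted p = 0.224).

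Notch4, a receptor used mainly by endothelial cells, had log2 levels of 1.38, 1.23 and 0.79 in DOX+ and 0.61, 0.58 and 0.66 in DOX-. The groups did not overlap, and the DOX- arrays lay close together, with an SD of 0.30 in DOX+ and 0.044 in DOX-. The log2 difference was 0.52 (SE 0.18, 95% interval 0.086 to 0.95), or 1.43-fold, and did not pass (limma adjusted p = 0.320). The other probes named Notch4 gave no measured level in most arrays. The probe across 209 bases is given the same transcript as the representing probe and lies 3.8 kb from it. It was on no array well above background, with intensities of 16.5, 5.32 and 15.4 in DOX+ and 5.15, 12.6 and 5.23 in DOX-. The distant probe had an intensity of 340 on DOX+ replicate 2, where it was well above background, and of 6.22 and 21.9 on the other DOX+ arrays, against 5.29, 5.90 and 5.41 in DOX-. That signal thus came from 1 array and was not tested.

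Notch1, the receptor expressed in most epithelia as well as in endothelium, varied most within a group. Its representing probe gave log2 levels of 0.48, -0.15 and 1.49 in DOX+ and 0.34, 0.61 and -0.016 in DOX-. DOX+ replicate 3 was the highest and DOX+ replicate 2 the lowest of all 6 arrays, and the SD of 0.82 within DOX+ was larger than that of 94.0% of genes. The log2 difference of 0.29 (SE 0.42, 95% interval -0.73 to 1.32; limma adjusted p = 0.799) was -0.15 without DOX+ replicate 3. The second Notch1 probe gave levels of -3.75, -3.37 and -3.74 in DOX+ and -4.13, -4.33 and -5.14 in DOX-. Here the groups did not overlap, as for 20.1% of all probes kept in either direction (21% of genes), and the probe was well above background on all 3 DOX+ arrays and on 2 of 3 DOX- arrays. In a fit over all 31720 probes kept, where 0.0599% passed, its log2 difference was 0.91 (SE 0.29; limma adjusted p = 0.298). This value includes DOX- replicate 3, which was not well above background, and the difference was 0.61 without that array. With the mean of both probes in place of the brighter one, the difference of Notch1 on the log2 scale was 0.60 (SE 0.27; limma adjusted p = 0.403). The second probe was kept through DOX+ alone, the group where it was brighter, so that mean is not separate evidence on Notch1.

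Notch2, the receptor known for its part in bile duct formation, had nearly level values. They were 0.98, 1.19 and 0.76 on the log2 scale in DOX+ and 1.07, 0.96 and 0.91 in DOX-, and the DOX- arrays lay within the range of the DOX+ arrays. The log2 difference was -0.0062 (SE 0.15; limma adjusted p = 0.991), and its 95% interval ran from -0.37 to 0.36. A second Notch2 probe was on no array well above background.

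**Figure D2:**
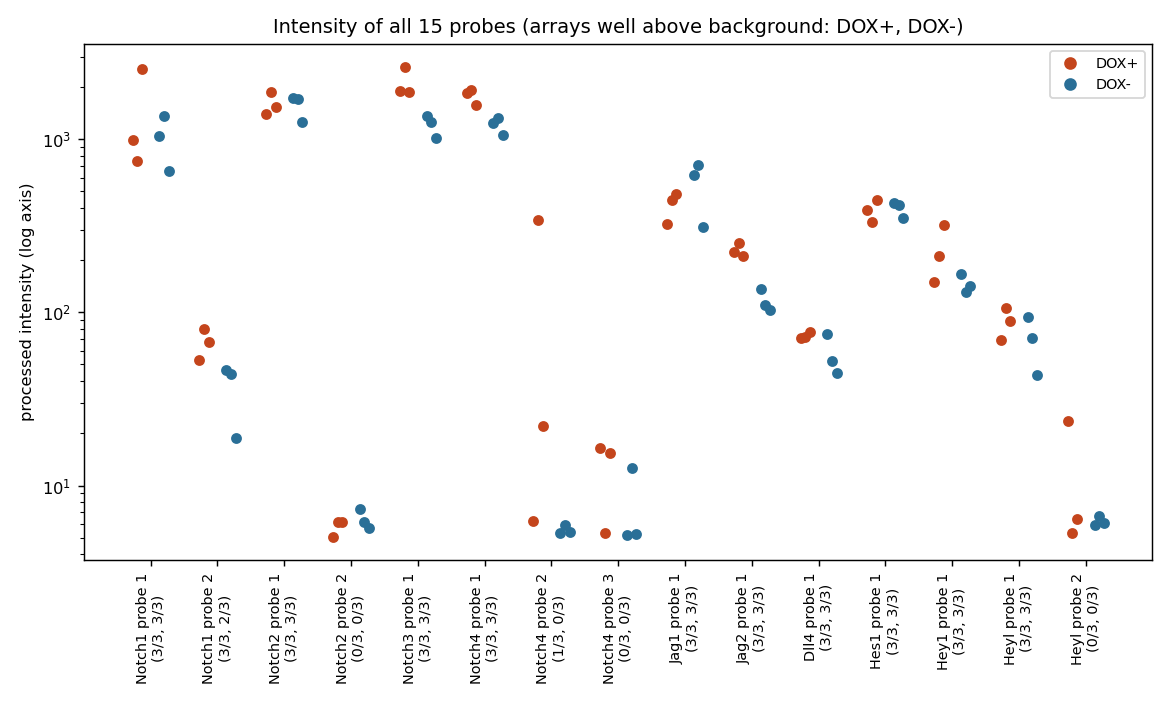
Processed intensity (log axis) of all 15 probes, with 3 DOX+ arrays left of 3 DOX- arrays for each; the numbers under a name give the arrays of DOX+ and of DOX- on which the probe was well above background. The second Notch2, the second Heyl and the third Notch4 probe (across 209 bases) are well above background on 0 arrays, and the second Notch4 probe (distant) reaches 340 on 1 DOX+ array.

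Among the ligands, Jag2, a Jagged ligand found in many epithelia, had the largest difference of the 10 genes. Its log2 levels were -1.66, -1.71 and -2.09 in DOX+ and -2.58, -2.99 and -2.69 in DOX-. The groups were separated by a gap of 0.49, wider than for Notch3 or Notch4. The means were -1.82 ± 0.24 in DOX+ and -2.76 ± 0.21 in DOX- (SD, n = 3 each), and the log2 difference of 0.93 (SE 0.18, 95% interval 0.49 to 1.38), or 1.91-fold, did not pass (limma adjusted p = 0.180). By p-value Jag2 stood at rank 223 of the 20725 genes. With normexp, a model-based background correction, its log2 difference was 0.63 (SE 0.15). The probe lies on the minus strand at chr12:114146887-114146946 (mm9).

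Jag1, the ligand that acts in the patterning of bile ducts, had log2 levels of -1.13, -0.88 and -0.91 in DOX+ and -0.39, -0.32 and -1.10 in DOX-. DOX- replicates 1 and 2 were above every DOX+ array, while DOX- replicate 3 lay among them. The log2 difference was -0.37 (SE 0.23, 95% interval -0.94 to 0.19; limma adjusted p = 0.524), and it was -0.62 without DOX- replicate 3 and -0.23 without DOX- replicate 2. Dll4, the Delta ligand of sprouting and arterial endothelium, had log2 levels of -3.31, -3.52 and -3.56 in DOX+ and -3.45, -4.07 and -3.90 in DOX-. DOX- replicate 1 lay among the DOX+ arrays. The log2 difference was 0.34 (SE 0.19, 95% interval -0.13 to 0.81; limma adjusted p = 0.487), and it was 0.21 without DOX- replicate 2 and 0.52 without DOX- replicate 1.

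Among the targets, Hes1, a repressor switched on by Notch in many cell types, had log2 levels of -0.87, -1.31 and -1.01 in DOX+ and -0.93, -1.08 and -0.92 in DOX-. The DOX- arrays lay within the range of the DOX+ arrays. The log2 difference was -0.086 (SE 0.16, 95% interval -0.46 to 0.29; limma adjusted p = 0.843). Hey1, a related repressor expressed in endothelium and other tissues, had levels of -2.25, -1.96 and -1.49 in DOX+ and -2.29, -2.76 and -2.22 in DOX-. The groups overlapped narrowly, since DOX- replicate 3 was just above DOX+ replicate 1. The log2 difference was 0.53 (SE 0.25, 95% interval -0.070 to 1.12; limma adjusted p = 0.415). Heyl, the third of these repressors and a target of NOTCH3 in smooth muscle, had levels of -3.36, -2.95 and -3.35 in DOX+ and -3.12, -3.64 and -3.93 in DOX-. DOX- replicate 1 was above a pair of the DOX+ arrays, and the log2 difference was 0.34 (SE 0.24, 95% interval -0.25 to 0.93; limma adjusted p = 0.572). It was 0.16 without DOX- replicate 3, 0.21 without DOX+ replicate 2 and 0.56 without DOX- replicate 1. A second Heyl probe was on no array well above background.

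By array, the highest level of 9 of the 10 genes was on a DOX+ array, Jag1 being the exception, and this was so for 47.4% of all genes. For Notch1, Notch2 and Hes1 the lowest level was on a DOX+ array as well. DOX- replicate 2 was the lowest array for 5 of the 10, namely Notch3, Notch4, Jag2, Dll4 and Hey1, beside 9.79% of all genes. Some values changed when the fit was blocked on the slide row, though an effect of the row cannot be told apart from differences between the samples. In a fit blocked on the row, where only DOX- replicate 1 stands against the DOX+ arrays, the log2 differences were 0.76 (SE 0.26) for Jag2, 0.64 (SE 0.27) for Notch3, 0.52 (SE 0.27) for Notch4 and 0.40 (SE 0.37) for Hey1. They were -0.016 (SE 0.20) for Dll4, -0.10 (SE 0.25) for Heyl and -0.59 (SE 0.33) for Jag1, and none of the 10 genes passed (lowest limma adjusted p = 0.668).

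The endothelial markers also had higher means in DOX+. The means of all 16 were higher in DOX+ and their median difference was 0.49 (log2), although 0 passed the limma test. At an unadjusted p under 0.05 there were 5 higher, beside 7.17% of all genes. In 8 of the 16 every DOX+ array lay above every DOX- array, beside 10.4% of all genes. The summed level of the 16 markers, as multiples of the array's 75th percentile, was 47.0 to 62.4 in DOX+ and 36.3 to 46.1 in DOX-. None of these markers was at background on any array. Relative to the mean level of the 16 markers on the same array, a comparison chosen after the data were seen, Notch4 averaged 0.41 in DOX+ and 0.43 in DOX- on the log2 scale, a difference of -0.019 (SE 0.12), or between -0.13 and 0.041 with single arrays left out. Measured the same way, the difference was -0.19 (SE 0.14) for Dll4. Of the 14 smooth muscle and pericyte markers 10 had a higher and 4 a lower mean in DOX+, and 0 passed (limma; 0 had an unadjusted p under 0.05). Their summed level was 95.6 to 193 in DOX+ and 76.9 to 320 in DOX-, with DOX- replicate 1 the highest of all arrays. Relative to their mean on the same array, Notch3 had a log2 difference of 0.51 (SE 0.47) and Heyl of 0.10 (SE 0.38). The value of Notch3 rests on DOX- replicate 1, without which it was 0.049. That of Heyl ranged from -0.19, without DOX- replicate 1, to 0.34, without DOX- replicate 2, and was -0.043 without DOX+ replicate 3. Of 12 bile duct epithelium markers 10 had a lower and 2 a higher mean in DOX+, with 0 past the limma test and a median difference of -0.24 (log2). At an unadjusted p under 0.05 there were 3 lower, beside 6.18% of all genes. In 5 of the 12 every DOX+ array lay below every DOX- array, beside 10.6% of all genes. The mean log2 level of the 12 markers was 3.70 to 3.79 in DOX+ and 4.07 to 4.45 in DOX-, a difference of -0.52 (SE 0.11) with no overlap. That mean was weighted by Cdh1 (-2.01), Slc10a2 (-1.74) and Krt7 (-1.01). The other markers of the list differed by between -0.51 (Muc1) and 0.46 (Slc4a2). The summed level of the 12 markers was 551 to 612 in DOX+ and 612 to 839 in DOX-, where DOX+ replicate 1 and DOX- replicate 1 were level. Fibroblast markers were divided 4 to 4 (summed level 90.2 to 144 in DOX+ and 106 to 163 in DOX-). Of the hepatocyte markers 2 of 5 were higher in DOX+, and Tat, at -1.04 (log2), was lower with an unadjusted p under 0.05 (limma). Of the leukocyte markers 1 of 6 was higher, Cpa3, at 2.17 (log2) and an unadjusted p under 0.05 (limma), while S100a8 differed by -3.06. All 5 acinar markers were higher, with groups that overlapped in summed level (95.8 to 132 in DOX+ and 59.6 to 186 in DOX-). The mean log2 level of the acinar markers ran from -1.72 on DOX- replicate 1 to 3.66 on DOX- replicate 3. None of these 4 lists had a gene past the limma test. The part of these shifts in the levels of Jag2 and of the other Notch genes was not tested.

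**Figure D3:**
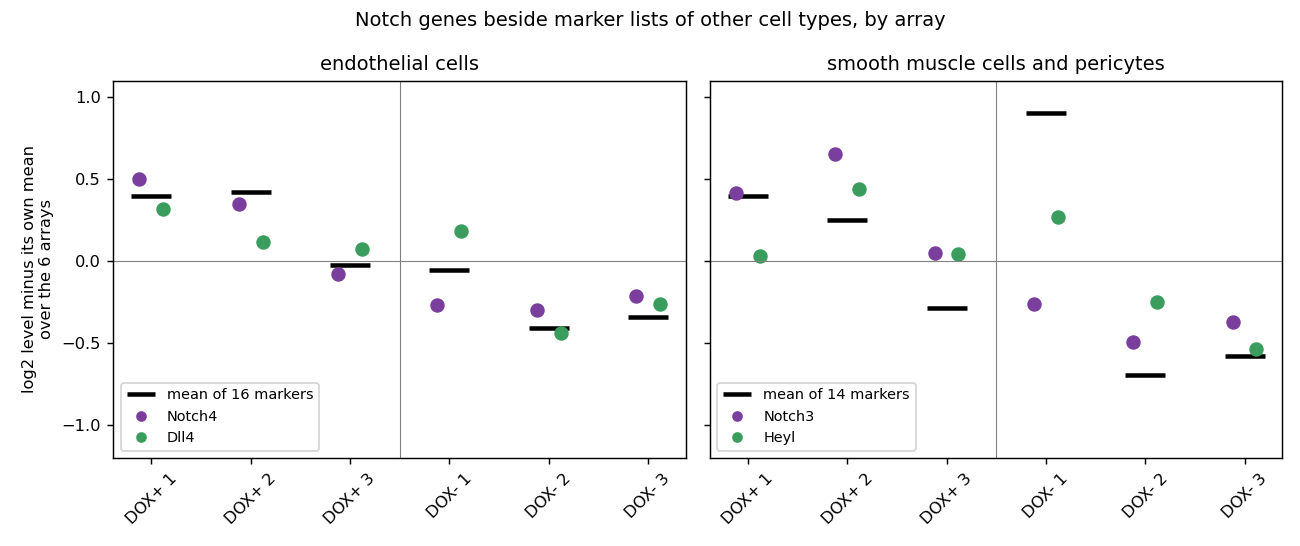
Log2 level of Notch4 and Dll4 beside the mean of 16 endothelial markers (left) and of Notch3 and Heyl beside the mean of 14 smooth muscle and pericyte markers (right), each minus its own mean over the 6 arrays, by array. Notch4 differs between the groups by -0.019 relative to the endothelial mean, and the smooth muscle mean is highest on DOX- replicate 1.

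Of 61 other genes of the pathway, listed by role, 54 could be tested and 53 of those were well above background on all 6 arrays. None passed in either direction (limma). At an unadjusted p under 0.05 there were 3 higher and 3 lower, beside 7.17% higher and 6.18% lower of all genes. Hes2, among the 3 higher, entered the test through DOX+ alone. The means were higher in DOX+ for 21 and lower for 33, and the median difference was -0.066 (log2). The proteases that mature and cleave the receptors, gamma-secretase subunits included, had lower means in DOX+ in 10 of 10 genes, with log2 differences between -0.33 and -0.0092 and a median of -0.19. Over all genes tested, 48.8% had a higher mean in DOX+. Furin, the convertase that matures the receptors, differed by -0.0092 (SE 0.14) and Psenen, a gamma-secretase subunit, by -0.26 (SE 0.17). Psen2, a catalytic subunit of gamma-secretase, was the 1 protease gene with an unadjusted p under 0.05.

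The nuclear complex was divided, with 7 of 17 genes higher and 10 lower. Tle2, a Groucho co-repressor that works with Hes proteins, had the smallest p of the list. Its log2 levels were 3.54, 3.52 and 3.62 in DOX+ and 2.93, 2.80 and 2.81 in DOX-, so the groups did not overlap, and the difference of 0.72 (SE 0.11) did not pass (limma adjusted p = 0.154). Ctbp1, a co-repressor gene, had a log2 difference of -0.32 (SE 0.16). Maml2 and Tle3, also of this complex, were beside Psen2 the lower genes with an unadjusted p under 0.05 (limma). They differed by -0.56 (SE 0.20) and -0.47 (SE 0.17) and did not pass (limma adjusted p = 0.327 and 0.341). Among the ubiquitin ligases and other genes of endocytosis and trafficking, 6 of 13 were higher and 7 lower. Mib1 and Mib2, which ubiquitinate ligands in the sending cell, differed by -0.047 (SE 0.12) and 0.30 (SE 0.19), and Dtx3, of the Deltex family, by 0.85 (SE 0.28; limma adjusted p = 0.306). Of the 5 glycosyltransferase genes 3 were higher and 2 lower, with Rfng, a fringe enzyme, at 0.053 (SE 0.11) and Pofut1, the O-fucosyltransferase of Notch, at -0.35 (SE 0.18). The ligand Dll1 differed by -0.37 (SE 0.27) and the Delta-like gene Dlk2 by -0.085 (SE 0.15).

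Of the other target genes 5 of 7 tested were higher and 2 lower in DOX+. Hes6 differed by 0.022 (SE 0.24) and Ccnd1, which encodes cyclin D1, by -0.68 (SE 0.31). Hes2, another Hes gene, was well above background on all 3 DOX+ arrays and on none of the DOX- arrays. Its mean levels were -4.82 in DOX+ and -5.44 in DOX-. A bound took the DOX- level on each array as the higher of its own signal and the lowest signal well above background. By that bound the DOX+ mean was 1.06-fold that of DOX-, with both near the floor and no error estimated. It entered the test through DOX+ alone. The limma adjusted p of 0.182 belongs to the measured levels and not to the bound. With Hes2 at that bound the median of the pathway list was again -0.066. Dll3, Dlk1, Rbpjl, Hes3, Hes5, Hey2 and Nrarp were not well above background on all 3 arrays of either group and were not tested.

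**Figure D4:**
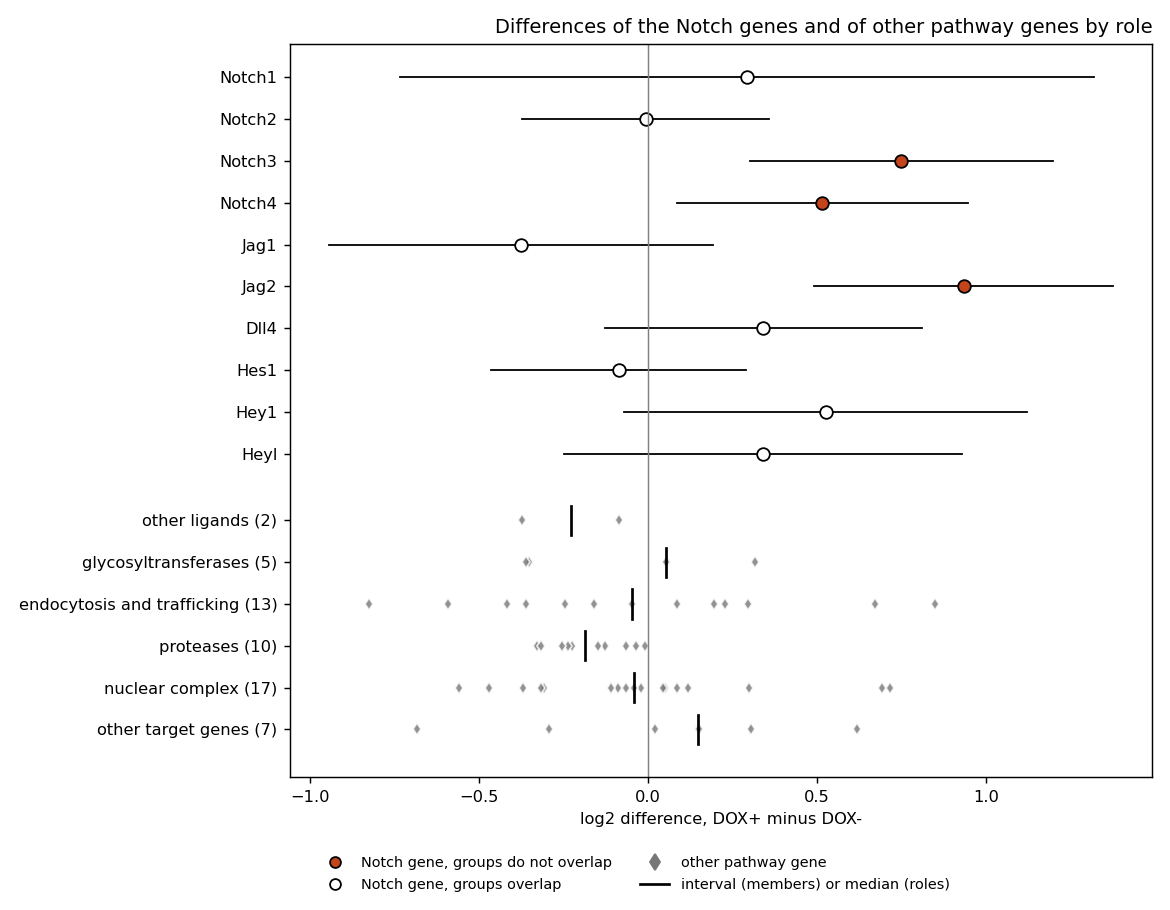
Log2 difference, DOX+ minus DOX-, of the 10 Notch genes with 95% intervals (filled where the groups do not overlap) and of 54 other pathway genes by role, with the number of genes and a line at the median. The intervals of Notch3, Notch4 and Jag2 lie above 0 and those of the other genes include it, and all 10 protease genes lie below 0.

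The size of each difference varied between processing settings and with the arrays left out. Jag2 ranged from 0.63, with normexp, to 1.07, without DOX+ replicate 3. Notch3 ranged from 0.61, without DOX+ replicate 2, to 0.91, without DOX+ replicate 3, apart from its values relative to markers. Hey1 ranged from 0.32, without DOX+ replicate 3, to 0.70, without DOX+ replicate 1. The lowest adjusted p that limma gave any of the 10 genes under any setting was 0.131, for Jag2.

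**Figure D5:**
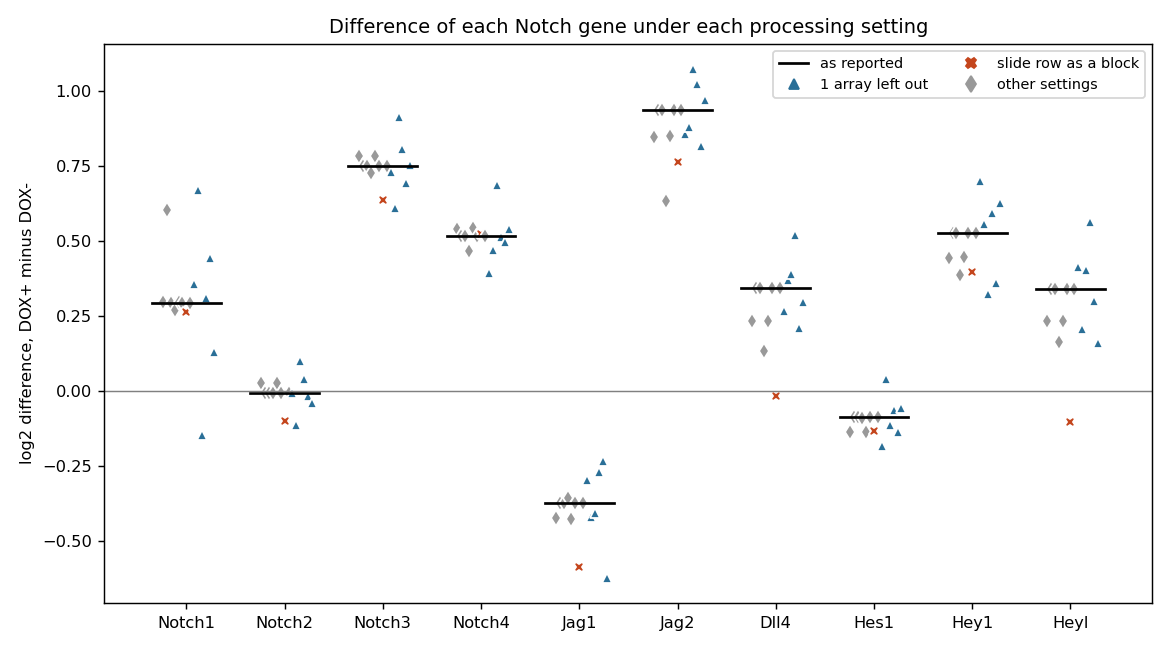
Log2 difference, DOX+ minus DOX-, of each Notch gene (horizontal axis) under each setting: the black line is the value as reported, triangles leave out 1 array, crosses take the slide row as a block, and diamonds are the other settings; values relative to markers are not drawn. Jag2, Notch3, Notch4 and Hey1 stay above 0 and Jag1 below it in all settings drawn, while Dll4 (-0.016) and Heyl (-0.10) lie below 0 when blocked on slide row.

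The genes whose levels ran most like those of a Notch gene over the 6 arrays were sought for the 3 genes with the largest SD, Notch1, Jag2 and Notch3, among 19133 other genes well above background on all arrays. For Notch3 they were Scn4a, Kank3 and Hic2 (Pearson r over 6 arrays of 0.998, 0.993 and 0.989), and 357 genes had an r over 0.9. For Jag2 they were a probe with no gene name, Hoxd8 and Kcnh6 (r = 0.993, 0.988 and 0.988), with 320 genes over 0.9. For Notch1 they were E330037G11Rik, Ces2e and Sirt7 (r = 0.993, 0.991 and 0.984), with 119 genes over 0.9. These are the highest of many values over the same 6 arrays and describe these arrays only.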

How the data were processed

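Expression was measured in 6 samples, 3 DOX+ and 3 DOX-, on 1-colour Agilent arrays. The authors extracted the scans with Agilent software (Feature Extraction 10.7.1.1, per the file headers, but 9.5.1.1 per the submitters' processing notes); the deposited intensity was spatially and multiplicatively detrended within each array, and probes are positioned on mm9, per the file headers. A further deposited table holds the authors' processed intensity on a linear scale. Once sorted, its columns differed by at most 0.000342 of their value, its column medians were 57.8, and each column correlated with its own array at 0.998 or more. The deposited files also flag each spot as above background, saturated or an outlier.

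From the deposited intensity, log2 values were computed and scaled by subtracting each array's own 75th percentile over non-control spots, leaving out 50 to 64 outlier spots per array, and spots of 1 probe were averaged. A probe was kept where either group had it well above background on all 3 of its arrays (31720 of 56605), and the probe with the highest mean over all arrays represented a gene, giving 20725 genes. Probes were named through RefSeq or Ensembl accessions (33895), symbols (9464) or older symbols (489) of GRCm38.p6, and 12757 kept the name in the file. The comparison of groups used lmFit and eBayes of limma 3.58.1, under R 4.3.3 (two-sided, Benjamini-Hochberg over all genes, threshold 0.05), which was tested on simulated data. The SEs of marker means and of levels relative to markers came from the SDs of the 3 arrays per group, without eBayes.

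The 10 genes and all lists were chosen with earlier results of these data known. All 10 genes are named; of each role on the pathway list the 2 genes with the highest mean are named, with the 3 of smallest p over the list; 1 gene that this rule names is not reported here. Psen2, Maml2, Tle3 and the genes that could not be tested were named after their values were seen. Same-numbered arrays did not deviate together (correlations of deviations from the group mean over 20724 genes of -0.0862, -0.131 and -0.0191). Alternatives were normexp, quantile normalization, the authors' table, other filters, the mean of a gene's probes, the slide row or the replicate number as a block, and leaving out each array.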

Additional observations from a re-analysis of the deposited data

How the results depend on the processing

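None of the 10 Notch genes, their probes or the 54 other pathway genes passed the limma test under any alternative run; at an unadjusted p under 0.05 the Notch genes numbered 1 to 4 across alternatives. Over all genes the 8 that passed became 2 with the authors' processed values (unadjusted p under 0.05: 2724), 2 with quantile normalization (2723), 1 with no filter on dim probes (3312), 5 with probes well above background on all 6 arrays (2433), 0 blocked on slide row (1418), 0 with the replicate block (2256), 7 with normexp (2728) and 12 with the mean of a gene's probes (2736). Leaving out 1 array gave 0 to 9, with 0 without DOX- replicate 2 (1536) and 1 without DOX+ replicate 1 (2390). The replicate numbers of the labels are shared between the groups, but same-numbered arrays did not deviate together, and the replicate block changed no call among the Notch genes (lowest adjusted p = 0.334). The median log2 difference of the Notch genes was 0.12 when blocked on slide row and 0.23 to 0.52 without single arrays, highest without DOX- replicate 1. The median of the other pathway genes stayed between -0.13 and -0.017. Jag2, Notch3, Hey1 and Jag1 kept their direction under all alternatives run, Jag2 between 0.63 and 1.07. Signs turned for Notch2 (0.026 with the authors' values, 0.026 with quantile normalization, 0.10 without DOX+ replicate 3, 0.040 without DOX- replicate 1), Hes1 (0.038 without DOX+ replicate 2), Notch1 (-0.15 without DOX+ replicate 3), Dll4 (-0.016, blocked on slide row) and Heyl (-0.10, likewise). Leaving out 1 array gave -0.11 to 0.10 for Notch2, -0.18 to 0.038 for Hes1 and -0.15 to 0.67 for Notch1. Relative to the endothelial markers, an alternative chosen after seeing the data, signs turned for Notch4 (-0.019) and Dll4 (-0.19). With normexp the differences of Dll4 and Heyl were 0.13 and 0.16. The causes were not tested. Signal over background limits the second Notch1 probe, which was well above it on 2 of 3 DOX- arrays.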
